A study of Homo sapiens with 18 samples.

Results

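The reelin axis was followed in MDA-MB-231 cells, an established triple-negative breast cancer line, through 5 genes of 62703 in the deposited tables. These were RELN, which encodes the ligand, VLDLR and LRP8, which encode its receptors, and DAB1 and DAB2, which encode adaptors that bind the tails of such receptors. They were chosen from these same libraries, because RELN rose strongly with the hairpin against E2F1 and VLDLR rose in both knockdowns. Their changes in the knockdown comparisons are therefore given as a description and were not tested.

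The study asked what EZH2, the methyltransferase subunit of Polycomb repressive complex 2, does together with the transcription factor E2F1 in these cells. Poly(A) RNA was sequenced in 10 distinct libraries, 2 in each of 5 groups. In 3 groups cells were exposed for 24 h to lentivirus that carried a control shRNA or a hairpin to deplete EZH2 (shEZH2) or E2F1 (shE2F1), and were then selected for 72 h in 2 ug/ml puromycin. In the other groups unselected cells were treated for 72 h with DMSO or with 1 uM GSK126, which inhibits the methyltransferase activity of EZH2. Each target was depleted with a single hairpin in a single line, and the labels do not say whether replicates were separate cultures, so that p-values measure only the spread between these libraries.

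Reelin is a large secreted glycoprotein best known for guiding migrating neurons to their layers in the developing cortex and cerebellum. On binding VLDLR and LRP8 it clusters them, and the adaptor DAB1, held at a short motif in their tails, is phosphorylated by the kinases SRC and FYN and passes the signal to PI3K, CRK and LIS1. DAB2 recognises the same kind of motif but leads receptors of the low-density lipoprotein (LDL) receptor family into clathrin-coated pits.

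Total counts ranged from 13198932 to 20055550 per library, so that a count of 0 allows up to 0.15 to 0.227 counts per 1000000 (CPM), by counting error only. The labels were checked on the targeted genes. EZH2 stood at 153 and 181 CPM with control shRNA and at 52.7 and 44.8 CPM with shEZH2. E2F1 stood at 143 and 138 CPM with control shRNA and at 26 and 22.5 CPM with shE2F1, and it was also low, at 62.5 and 32.3 CPM, with shEZH2. Transcripts per 1000000 (TPM), the unit scaled by gene length, were used to check the line against its markers, with VIM at 1185 to 2860 TPM and CD44 at 446 to 659 TPM over the 10 libraries. ESR1 did not exceed 0.17 TPM and PGR was at 0, and the epithelial cadherin CDH1 lay between 0.26 and 4.5 TPM. Other luminal or epithelial markers were present in every library, with EPCAM at 12.4 to 37.7 TPM, GATA3 at 5.86 to 13.8 TPM and the keratin KRT8 at 1126 to 1470 TPM. The leukocyte marker PTPRC and the endothelial marker PECAM1 did not exceed 0.46 and 0.72 TPM, and the fibroblast marker DCN was at 0. Of the other markers of other cell types, CD14, VWF, RBFOX3 and LHX1 did not exceed 1.6 TPM, whereas the tubulin gene TUBB3, known from neurons, lay between 52.5 and 117 TPM, PDGFRB between 2.42 and 5.87 TPM and GFAP between 1.19 and 5.72 TPM. Their part in the results was not tested. In bulk RNA, fewer cells that express a gene and less RNA of it per cell cannot be told apart.

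On GRCh38, RELN lies at chr7:103471381-103989658 on the minus strand, VLDLR at chr9:2621182-2660056 on the plus strand, LRP8 at chr1:53242364-53328469 on the minus strand, DAB1 at chr1:56994778-58546734 on the minus strand and DAB2 at chr5:39371675-39462300 on the minus strand. The 250 bases before the RefSeq start of the 4 genes that were detected are shown because these genes moved in different directions and the study concerns promoter regulators. They are written 5′ to 3′ in the gene's direction, from RefSeq GRCh38.p14, with every CpG dinucleotide in capitals, at chr7:103989659-103989908 for RELN, chr9:2621537-2621786 for VLDLR, chr1:53328071-53328320 for LRP8 and chr5:39424981-39425230 for DAB2.
RELN: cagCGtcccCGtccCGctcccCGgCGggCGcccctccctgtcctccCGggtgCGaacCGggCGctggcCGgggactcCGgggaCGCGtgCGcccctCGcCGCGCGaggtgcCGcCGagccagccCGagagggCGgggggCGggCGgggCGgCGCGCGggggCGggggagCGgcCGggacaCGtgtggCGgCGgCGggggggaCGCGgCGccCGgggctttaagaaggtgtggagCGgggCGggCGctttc
VLDLR: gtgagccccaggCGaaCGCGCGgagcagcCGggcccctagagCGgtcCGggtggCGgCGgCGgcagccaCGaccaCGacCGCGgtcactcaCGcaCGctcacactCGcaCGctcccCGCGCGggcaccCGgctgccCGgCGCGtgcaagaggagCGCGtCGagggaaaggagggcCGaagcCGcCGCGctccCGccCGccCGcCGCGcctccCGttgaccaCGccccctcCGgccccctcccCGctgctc
LRP8: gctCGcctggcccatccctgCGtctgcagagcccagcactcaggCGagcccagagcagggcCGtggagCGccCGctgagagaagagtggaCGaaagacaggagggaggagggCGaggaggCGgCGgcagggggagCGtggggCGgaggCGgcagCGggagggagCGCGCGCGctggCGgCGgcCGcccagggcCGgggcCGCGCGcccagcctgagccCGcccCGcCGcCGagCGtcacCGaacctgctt
DAB2: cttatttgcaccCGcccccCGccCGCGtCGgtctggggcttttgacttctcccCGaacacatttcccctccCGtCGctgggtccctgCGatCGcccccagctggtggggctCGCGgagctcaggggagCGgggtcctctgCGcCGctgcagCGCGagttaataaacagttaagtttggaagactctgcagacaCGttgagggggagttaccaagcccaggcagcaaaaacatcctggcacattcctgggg
RELN and VLDLR held 43 and 41 CpG in these windows, against a median of 11 over 35116 RefSeq windows of the same length, and 99% and 98.3% of windows held fewer. LRP8 held 31 CpG (89.1% of windows held fewer) and DAB2 held 18 (63.2%). G and C made up 83.2% of the RELN window, 78.8% of the VLDLR window, 77.2% of the LRP8 window and 62.4% of the DAB2 window. The E2F motif written as TTTGGCGC, TTTCCCGC, TTTGCCGC or TTTCGCGC was searched on both strands. No window of the 5 genes held it, and 2.79% of all windows did. A missing match says only that these letters are not in these windows. The VLDLR, LRP8 and DAB2 windows lie inside the loci given above, which reach further upstream. Starts upstream of these windows were not examined.

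RELN was high with shE2F1 and low in every other group. It stood at 2.97 and 2.88 CPM with control shRNA, at 5.27 and 2.94 CPM with shEZH2 and at 57.5 and 63.6 CPM with shE2F1. The shE2F1 libraries were far above all others, and the shEZH2 libraries overlapped the control range. In the fit, RELN was 4.36 ± 0.21 higher with shE2F1 than with control shRNA on the log2 scale (SE, n = 2 libraries a group), a 20.5-fold difference. It ranked 51 of the 15373 genes tested when ordered from the largest rise. With shEZH2 the log2 change was 0.44 ± 0.26, with a 95% interval from -0.14 to 1.02. That value rested on 1 library, since leaving out shEZH2 replicate 1 gave -0.01 and leaving out replicate 2 gave 0.85, and it was 0.03 after correction for GC content and length.

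RELN was a scarce transcript before the knockdown. It was counted 56 and 48 times in the control shRNA libraries, against 1199 and 1180 times in the shE2F1 libraries. Per length it went from 0.96 and 0.92 TPM to 20.6 and 23.5 TPM. In unselected cells it stood at 6.82 and 6.78 CPM with DMSO and at 9.14 and 7.55 CPM with GSK126. DMSO cells thus held 2.33 times the RELN of control shRNA cells by mean CPM. These groups differ in virus, selection and experiment together, which cannot be told apart, and against DMSO the mean of shE2F1 was 8.91 times as high. Ordered by mean CPM, RELN ran from control shRNA through shEZH2, DMSO and GSK126 to shE2F1, and among neighbours only control shRNA and shEZH2 overlapped.

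**Figure D1:**
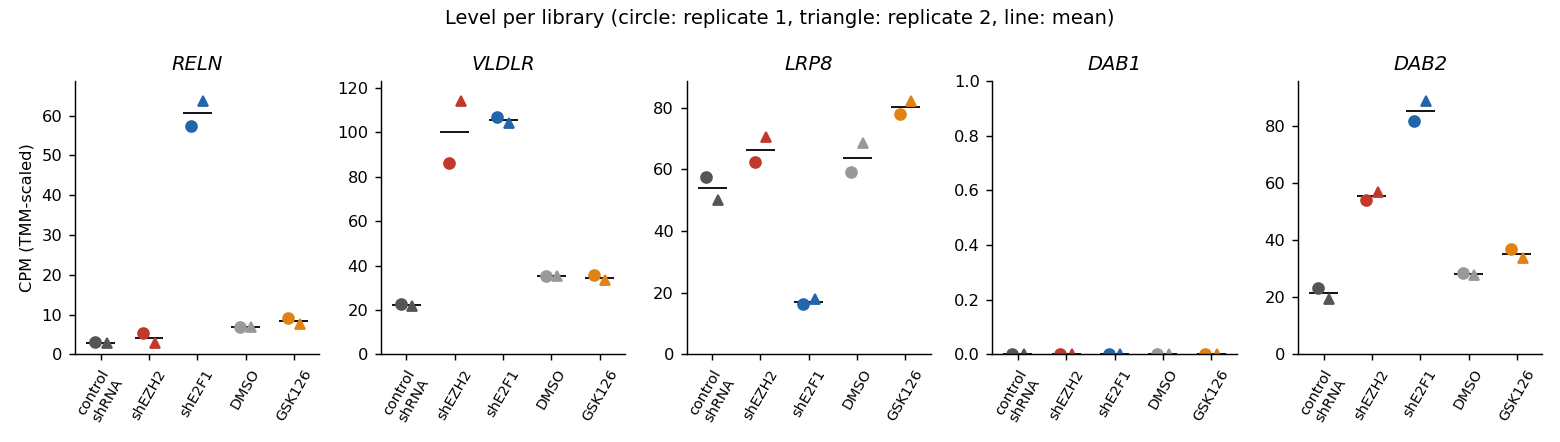
Level of each gene in every library in TMM-scaled CPM (vertical axis, linear from 0) by group (horizontal axis), with circles for replicate 1, triangles for replicate 2 and a line at the mean. RELN is high only in the shE2F1 libraries (57.5 and 63.6 CPM), VLDLR and DAB2 are high with both hairpins, LRP8 is low only with shE2F1 (16.4 and 17.8 CPM), and DAB1 is at 0 throughout.

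VLDLR, a receptor that binds reelin and also takes up triglyceride-rich lipoproteins, was high with both hairpins. It stood at 22.5 and 21.8 CPM with control shRNA, at 86.3 and 114 CPM with shEZH2 and at 107 and 104 CPM with shE2F1. No library of either knockdown came near the control range, and the shEZH2 range enclosed the shE2F1 range. The log2 change was 2.16 ± 0.13 with shEZH2, a 4.47-fold difference, and 2.24 ± 0.13 with shE2F1, a 4.73-fold difference. These comparisons share the control libraries. Set directly against each other, shEZH2 and shE2F1 differed by -0.08 ± 0.12 on the log2 scale, with a 95% interval from -0.35 to 0.18. This small difference changed sign, to 0.10, without shEZH2 replicate 1, and was -0.43 after correction for GC content and length. E2F1 itself was low in both knockdowns, as given above, and the part of that in the VLDLR values was not tested.

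In unselected cells VLDLR stood at 35.1 and 35.4 CPM with DMSO and at 35.7 and 33.4 CPM with GSK126. The mean with DMSO was 1.59 times that with control shRNA. Against DMSO the means of shEZH2 and shE2F1 were 2.83 and 2.99 times as high. The order of means was control shRNA, GSK126, DMSO, shEZH2 and shE2F1, in which GSK126 and DMSO overlapped, as did shEZH2 and shE2F1.

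LRP8, the other reelin receptor, went the opposite way from VLDLR with shE2F1. It stood at 57.5 and 50.2 CPM with control shRNA, at 62.3 and 70.6 CPM with shEZH2 and at 16.4 and 17.8 CPM with shE2F1. Both shE2F1 libraries were below every other library of the series. The log2 change with shE2F1 was -1.66 ± 0.12, a 3.17-fold difference, and 2.45% of the genes tested had a more negative change. With shEZH2 the libraries lay just above the control range, at a log2 change of 0.29 ± 0.11. The direct difference of shEZH2 over shE2F1 was 1.96 ± 0.12. With DMSO LRP8 stood at 59 and 68.4 CPM, and with GSK126 at 78.1 and 82.1 CPM. The means ran from shE2F1 through control shRNA, DMSO and shEZH2 to GSK126, and DMSO overlapped shEZH2.

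The balance of the receptors was compared within each library per gene length. VLDLR made up 29.5% and 33.6% of the summed TPM of both receptors with control shRNA, 60.3% and 63.3% with shEZH2, and 85.3% and 86% with shE2F1. With DMSO it made up 41.4% and 36.7%, and with GSK126 34.3% and 31.9%. LRP8 was thus the more abundant receptor transcript in all 6 libraries that received no hairpin against EZH2 or E2F1, and VLDLR in the other 4. Since both receptors were among the chosen genes and VLDLR was picked for its level, this shift is a description. The sum of both receptors was 30.8 and 28 TPM with control shRNA, 59.8 and 80.7 TPM with shEZH2, and 57.8 and 58.6 TPM with shE2F1. The sum was higher in both knockdowns than with control shRNA, and its range with shEZH2 lay above that with shE2F1.

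**Figure D2:**
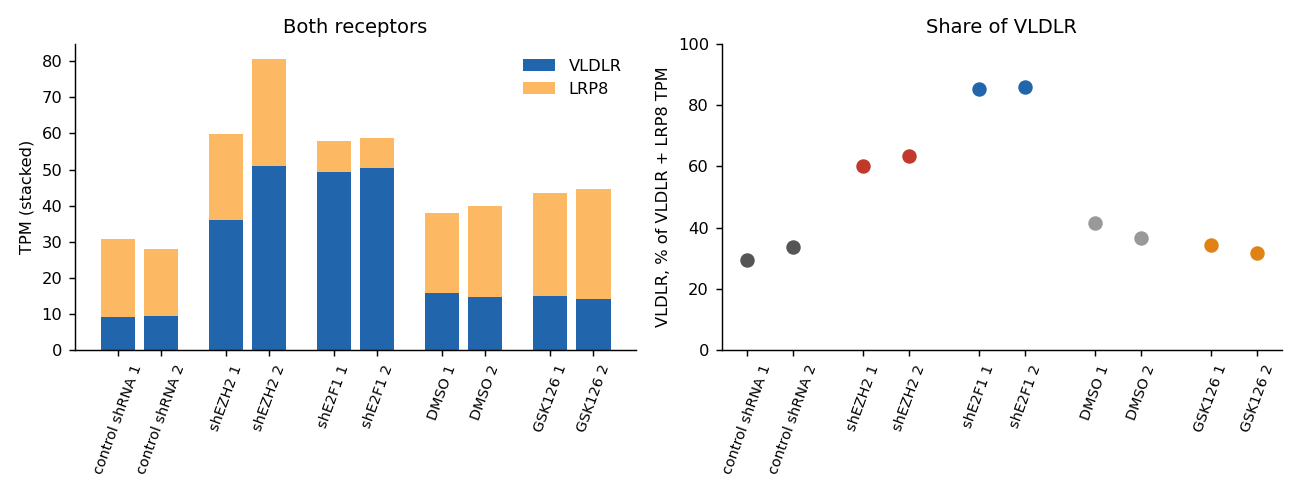
Left, TPM of VLDLR and LRP8 stacked for each library (vertical axis, TPM). Right, the percent of that sum given by VLDLR in each library (vertical axis, 0 to 100%), which lies between 29.5% and 41.4% in control shRNA, DMSO and GSK126 libraries, at 60.3% and 63.3% with shEZH2 and at 85.3% and 86% with shE2F1.

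Set against its receptors, the ligand was scarce except with shE2F1. The ratio of RELN TPM to the summed TPM of both receptors was 0.0311 and 0.0328 with control shRNA, 0.0356 and 0.0144 with shEZH2, and 0.357 and 0.401 with shE2F1. In DMSO and GSK126 libraries it lay between 0.0405 and 0.0677. Transcript ratios do not give the amounts of protein.

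DAB1, the adaptor that carries the canonical reelin signal, had 0 counts in each of the 10 libraries. A count of 0 allows up to 0.227 CPM in the shallowest library. It was the 1 gene of the 5 that passed no filter on low counts, and it was not tested. OMA1, a mitochondrial protease gene that overlaps DAB1 on the same strand, was counted 37 to 238 times per library.

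DAB2, the endocytic adaptor, was high in the same groups as VLDLR. It stood at 23.4 and 19.4 CPM with control shRNA, at 54.2 and 56.9 CPM with shEZH2 and at 81.9 and 88.8 CPM with shE2F1. The ranges of the 3 groups did not overlap. The log2 change was 1.36 ± 0.12 with shEZH2, a 2.56-fold difference, and 1.98 ± 0.12 with shE2F1, a 3.95-fold difference. The direct difference of shEZH2 under shE2F1 was -0.62 ± 0.11. In unselected cells DAB2 stood at 28.5 and 27.8 CPM with DMSO and at 36.9 and 33.8 CPM with GSK126. Its means ran from control shRNA through DMSO, GSK126 and shEZH2 to shE2F1, with no overlap between neighbours.

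**Figure D3:**
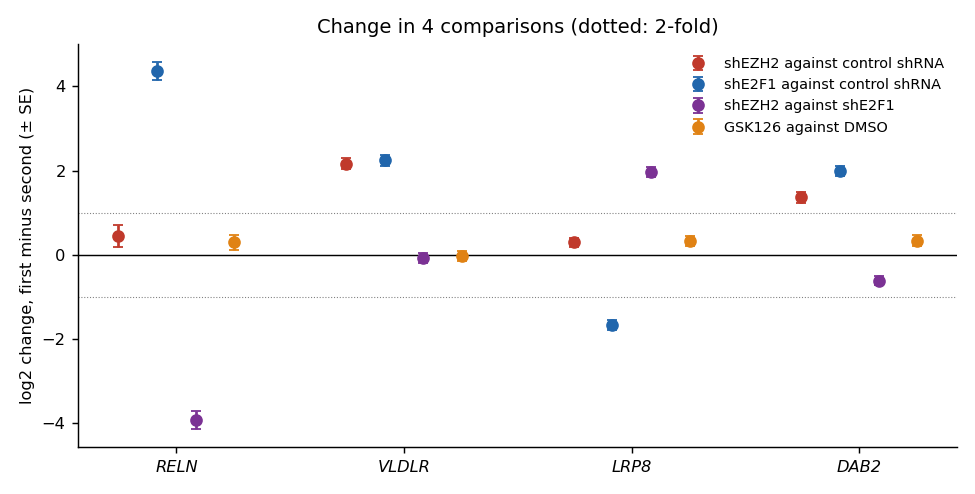
Log2 change of the 4 detected genes (vertical axis, first group minus second, points with bars of 1 SE) in 4 comparisons, with dotted lines at a 2-fold change. RELN stands at 4.36 with shE2F1 and 0.44 with shEZH2, VLDLR lies near 2.2 with both hairpins, LRP8 is at -1.66 with shE2F1 and 0.29 with shEZH2, and all 4 lie within 0.33 of 0 with GSK126.

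For orientation, a gene was called when its adjusted p in edgeR's quasi-likelihood test was under 0.01 and its change over 2-fold. With shEZH2, 7.52% of the 15373 genes tested were called higher and 10.7% lower. With shE2F1, 5.60% were called higher and 5.96% lower. Between shEZH2 and shE2F1, 10.4% were called higher with shEZH2 and 12.9% lower. Of the 4 genes kept by the filter, VLDLR and DAB2 differed by more than 2-fold with shEZH2, and RELN, VLDLR, DAB2 and LRP8 with shE2F1. These are sizes only, with no test, and nothing is read from them, because the genes were chosen from these comparisons.

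GSK126 against DMSO used no library of the choice and was tested. None of the 4 genes was called, as was no gene among 14632 (0.00% called) by edgeR, while 577 genes had an unadjusted p under 0.05 and DESeq2 called 10. LRP8 was 0.33 ± 0.12 higher with GSK126 on the log2 scale (95% interval 0.04 to 0.62, edgeR adjusted p = 1). DAB2 was 0.33 ± 0.13 higher (95% interval 0.02 to 0.63, edgeR adjusted p = 1). Both were among the genes with an unadjusted p under 0.05. These fits held no replicate block. With the block described below, both had an edgeR adjusted p under 0.01, still under 2-fold and not called. For each, both GSK126 libraries were above both DMSO libraries. RELN differed by 0.29 ± 0.18 (95% interval -0.14 to 0.73, edgeR adjusted p = 1), also with both GSK126 libraries above both DMSO libraries. VLDLR differed by -0.03 ± 0.12 (95% interval -0.32 to 0.26, edgeR adjusted p = 1), and its groups overlapped. For VLDLR and DAB2 the upper bounds, 0.26 and 0.63, lay below the gene's own values in both knockdowns. For RELN and LRP8 the values with shEZH2, 0.44 and 0.29, lay inside the gene's own GSK126 interval. Their values with shE2F1, 4.36 and -1.66, lay outside it. Whether knockdown and inhibitor differed was not tested.

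RSEM reports for each gene a length averaged over its transcripts by their estimated abundance, a readout that the choice of genes did not use. With 2 libraries a group the smallest exact two-sided p is 0.333, so that lengths are given without a test. For DAB2 it was 3746 and 3905 bases with control shRNA, 3724 and 3885 bases with shEZH2, and 3194 and 2990 bases with shE2F1. The shE2F1 values were shorter than both others without overlap, but their range overlapped that of the DMSO libraries, at 3141 and 3348 bases. For LRP8 it was 3968 and 3837 bases with control shRNA and 3184 and 3711 bases with shE2F1. For VLDLR the groups overlapped, between 3325 and 4045 bases over all libraries. For RELN, whose longest annotated transcript has 14720 bases, it lay between 4134 and 4600 bases except with GSK126, at 4860 and 6022 bases. These lengths fell far short of the full RELN transcript. When the effective length was used as an offset, the log2 change with shE2F1 became -1.50 for LRP8 and 2.28 for DAB2.

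**Figure D4:**
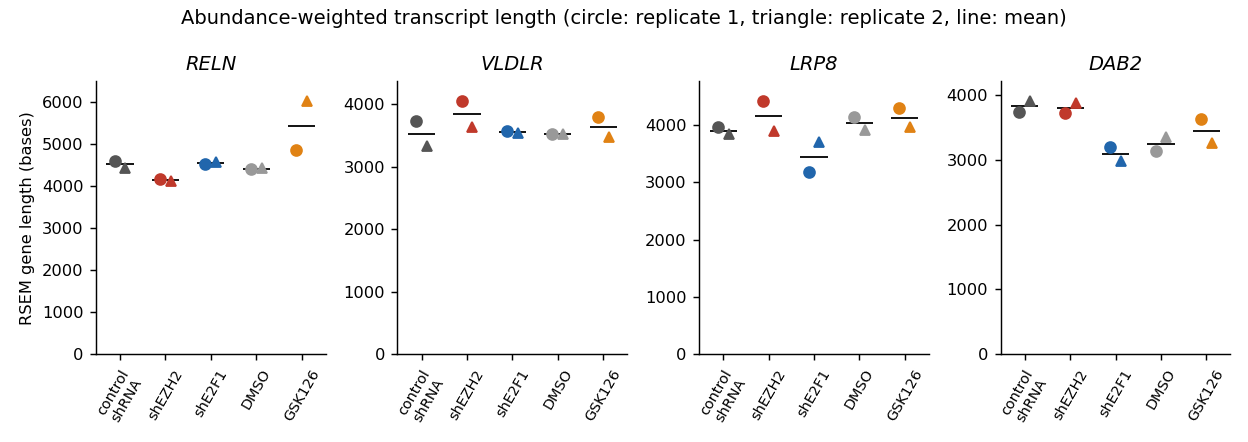
RSEM gene length in bases (vertical axis, from 0), the abundance-weighted mean over a gene's transcripts, for the 4 detected genes by group, with circles for replicate 1, triangles for replicate 2 and a line at the mean. DAB2 is shorter with shE2F1 (3194 and 2990 bases) than with control shRNA (3746 and 3905 bases), but overlaps DMSO (3141 and 3348 bases). RELN is longest in GSK126 replicate 2 (6022 bases).

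Over the 10 libraries VLDLR and DAB2 moved most alike, with a Pearson r of 0.95 in log2 CPM. RELN and DAB2 had an r of 0.75, RELN and VLDLR 0.55, and RELN and LRP8 -0.84. These values describe 10 points that share 5 groups and are largely set by the hairpins. Among 11543 genes with a unique symbol and a mean of at least 50 counts, those most like RELN were GPRC5B (r = 0.991), PDXDC1 (0.984), PRPS2 (0.980), RNF14 (0.979) and PLPPR2 (0.972). GPRC5B, an orphan receptor gene, had mean levels of 20.4 CPM with control shRNA, 25.5 CPM with shEZH2 and 149 CPM with shE2F1. Those most like VLDLR were MYO1E (0.994), KLHDC3 (0.991), KRT15 (0.987), SS18L1 (0.984) and TMEM14C (0.981). Those most like LRP8 were PMEPA1 (0.991), STBD1 (0.990) and GPR161 (0.990), and those most like DAB2 were FGD4 (0.984), GNAI1 (0.983) and FBN1 (0.981). PMEPA1, a gene induced by TGF-beta, had a mean of 9.97 CPM with shE2F1 and of 44.9 CPM with control shRNA.

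The other genes of the pathway were taken from 10 lists by role, 133 genes in all, of which 121 passed the filter in the knockdown libraries. With shEZH2, 16 of the 121 (13.2%) were higher and 11 (9.09%) were lower, beside 7.52% and 10.7% of all genes. With shE2F1, 4 (3.31%) were higher and 14 (11.6%) were lower, beside 5.60% and 5.96% of all genes. Their median log2 change was 0.11 with shEZH2 and -0.09 with shE2F1, beside -0.02 and -0.00 over all genes. Set directly against shE2F1, shEZH2 was higher for 20 (16.5%) and lower for 6 (4.96%), beside 10.4% and 12.9% of all genes. With GSK126 0 of 119 were called by edgeR or DESeq2, and 7 had an unadjusted p under 0.05.

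**Figure D5:**
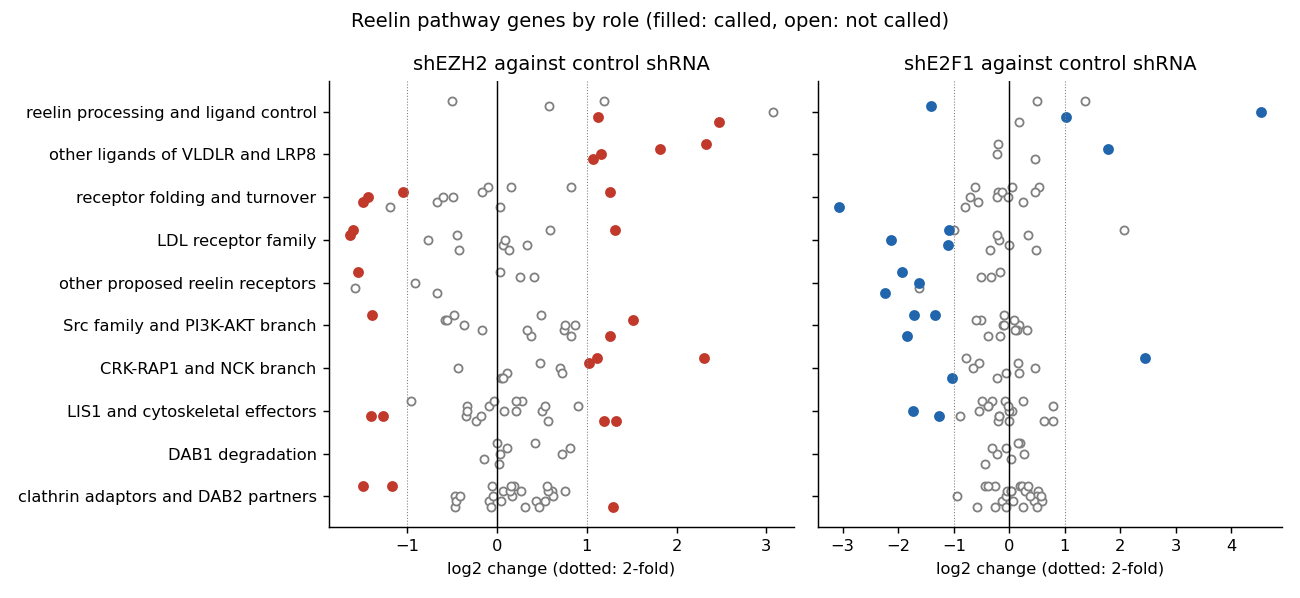
Log2 change of each tested pathway gene (horizontal axis, dotted lines at 2-fold) by role (vertical axis) with shEZH2, left, and shE2F1, right, against control shRNA, where filled points were called and open points were not. The 4 ligands beside reelin that were tested, of 8 listed, are called higher with shEZH2. The called receptors and kinases with shE2F1 lie on the lower side.

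Genes that process reelin or hold its proteases in check came first. With shEZH2, 2 of the 6 tested rose and none fell, and with shE2F1 2 rose and 1 fell. PLAT, tissue plasminogen activator, which cleaves reelin, rose by 1.13 ± 0.12 (edgeR adjusted p = 3.03e-05) with shEZH2, to a mean of 540 CPM from 245 CPM. With shE2F1 it rose by 1.03 ± 0.12 (edgeR adjusted p = 7.49e-05), at the edge of 2-fold, and the value was 0.97 without control shRNA replicate 2, 0.87 without shE2F1 replicate 2 and 0.97 after GC content and length correction. FURIN, a proprotein convertase, fell by 1.41 ± 0.09 (edgeR adjusted p = 2.07e-06) with shE2F1, from 97.3 to 36.8 CPM. PCSK5, another convertase, was counted 1 and 0 times with control shRNA and 16 times in each shE2F1 library. Its call (edgeR adjusted p = 0.0022) was lost when any of these libraries was left out (adjusted p 0.0111 to 0.0226) and in DESeq2 (adjusted p = 0.0263). Of the ADAMTS proteases of this list, ADAMTS2, ADAMTS3, ADAMTS4 and ADAMTS5 did not pass the filter, and ADAMTS14 was not called with either hairpin (edgeR adjusted p = 0.0215 and 0.338).

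Of 8 other ligands of VLDLR and LRP8, 4 passed the filter, and SELENOP, SPON1, F7 and LPL did not. With shEZH2 these 4 were called higher, beside 7.52% of all genes. APOE, the apolipoprotein E gene, rose by 2.33 ± 0.38 (edgeR adjusted p = 0.00042), from 16 counts in each control shRNA library to 44 and 101, and by 3.02 after GC content and length correction. CLU, clusterin, rose by 1.82 ± 0.19 (edgeR adjusted p = 2.21e-05) with shEZH2 and by 1.78 ± 0.19 (edgeR adjusted p = 3.48e-05) with shE2F1. THBS1, thrombospondin-1, rose by 1.07 ± 0.11 (edgeR adjusted p = 1.85e-05) and SERPINE2 by 1.16 ± 0.13 (edgeR adjusted p = 3.39e-05) with shEZH2. Under GC content and length correction these became 0.79 and 0.91, below 2-fold, and THBS1 was 0.97 without control shRNA replicate 1 and 0.98 without shEZH2 replicate 2. With shE2F1 CLU was the 1 ligand of this list called.

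Among 13 genes of receptor folding and turnover, 1 rose and 3 fell with shEZH2. MYLIP, a ubiquitin ligase that acts on VLDLR and LRP8, fell by 1.43 ± 0.19 (edgeR adjusted p = 0.00011) with shEZH2. ADAM17, a sheddase, rose by 1.26 ± 0.11 (edgeR adjusted p = 9.01e-06) with shEZH2, or by 0.95 after GC content and length correction, and BACE1 fell by 1.49 ± 0.16 (edgeR adjusted p = 3.22e-05).

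Of 11 further members of the LDL receptor family, 1 rose and 2 fell with shEZH2, and 3 fell with shE2F1. LRP3 fell by 1.63 ± 0.24 (edgeR adjusted p = 0.000197) with shEZH2, or by 1.05 with GC content and length correction. LRP4 fell by 2.13 ± 0.28 (edgeR adjusted p = 0.000134) with shE2F1, from 100 and 113 counts to 25 and 29. SORL1, a sorting receptor, moved in opposite directions, at 1.32 ± 0.17 (edgeR adjusted p = 9.39e-05) with shEZH2 and -1.09 ± 0.18 (edgeR adjusted p = 0.000726) with shE2F1. The direct difference between the hairpins was 2.41 ± 0.18 (edgeR adjusted p = 1.7e-06). Its call with shE2F1 was lost without control shRNA replicate 1, at -0.76, and without shE2F1 replicate 2, at an adjusted p of 0.0126. Among other proposed reelin receptors 1 of the 7 tested fell with shEZH2 and 3 fell with shE2F1. ITGA3, the integrin alpha-3 subunit, fell by 1.55 ± 0.12 (edgeR adjusted p = 4.59e-06) with shEZH2 and by 1.94 ± 0.12 (edgeR adjusted p = 1.7e-06) with shE2F1. EPHB2 fell by 2.24 ± 0.12 (edgeR adjusted p = 9.58e-07) and its ligand EFNB2 by 1.63 ± 0.14 (edgeR adjusted p = 1.13e-05) with shE2F1.

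Downstream, 2 of 15 genes of the Src family and PI3K-AKT branch rose and 1 fell with shEZH2, and 3 fell with shE2F1. The PI3K regulatory subunits split with shEZH2, where PIK3R3 rose by 1.51 ± 0.12 (edgeR adjusted p = 4.2e-06) and PIK3R1 by 1.26 ± 0.12 (edgeR adjusted p = 1.63e-05), while PIK3R2 fell by 1.39 ± 0.26 (edgeR adjusted p = 0.00109). After GC content and length correction PIK3R1 was at 0.96 and PIK3R2 at -0.90, below 2-fold, and PIK3R2 was at -0.93 without shEZH2 replicate 2 and at -1.98 without shEZH2 replicate 1. With shE2F1, PIK3R2 fell by 1.71 ± 0.26 (edgeR adjusted p = 0.000406), AKT1 by 1.33 ± 0.12 (edgeR adjusted p = 1.01e-05) and GSK3A, a kinase that AKT inhibits, by 1.84 ± 0.10 (edgeR adjusted p = 9.58e-07).

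Of 10 genes of the CRK-RAP1 and NCK branch, 3 rose with shEZH2, and 1 rose and 1 fell with shE2F1. CDH2, the N-cadherin gene, rose by 2.30 ± 0.47 (edgeR adjusted p = 0.00187) with shEZH2 and by 2.44 ± 0.46 (edgeR adjusted p = 0.00154) with shE2F1, on 9 and 4 counts with control shRNA. These calls were lost when single libraries were left out, while the changes stayed near their size. For shEZH2 the change was 1.92 without control shRNA replicate 2 (edgeR adjusted p = 0.015) and 2.03 without shEZH2 replicate 2 (edgeR adjusted p = 0.0187). For shE2F1 it was 2.06 without control shRNA replicate 2 (edgeR adjusted p = 0.0134) and 2.26 without shE2F1 replicate 1 (edgeR adjusted p = 0.0194). Without control shRNA replicate 1 the values were 2.88 and 3.03. NCK2, an adaptor that binds phosphorylated DAB1, rose by 1.11 ± 0.11 (edgeR adjusted p = 1.7e-05) with shEZH2. RASA1 fell by 1.04 ± 0.10 (edgeR adjusted p = 2.37e-05) with shE2F1, or by 0.99 without control shRNA replicate 2 and by 0.96 without shE2F1 replicate 1.

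Among 20 genes of the LIS1 and cytoskeletal list, 2 rose and 2 fell with shEZH2 and 2 fell with shE2F1. LIMK1, a kinase that phosphorylates the actin-severing protein cofilin, fell by 1.27 ± 0.12 with both hairpins (edgeR adjusted p = 1.15e-05 and 1.37e-05). CDK5 fell by 1.40 ± 0.17 (edgeR adjusted p = 5.75e-05) with shEZH2, while its activator CDK5R1 rose by 1.33 ± 0.17 (edgeR adjusted p = 7.31e-05). None of 8 genes that degrade DAB1 was called with either hairpin by edgeR or DESeq2, with 3 at an unadjusted p under 0.05 for shEZH2 and 4 for shE2F1. Of 27 clathrin adaptors and DAB2 partners, 1 rose and 2 fell with shEZH2. FCHO2, which starts coated pits, rose by 1.29 ± 0.12 (edgeR adjusted p = 1.16e-05), and AP2A1, an adaptor subunit, fell by 1.17 ± 0.13 (edgeR adjusted p = 3.1e-05). AP2A1 was at -0.68 after GC content and length correction and at -0.96 without shEZH2 replicate 2. With shE2F1 none of the 27 was called by edgeR or DESeq2, and 17 had an unadjusted p under 0.05.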

How the data were processed

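RNA of MDA-MB-231 cells was selected on poly(A), made into strand-specific libraries and sequenced. Of 18 sample records, 8 held the same values as another, which left 10 libraries, grouped and numbered by the labels. Per the study's methods and the submitters' processing notes, the authors mapped reads to hg38 with STAR 2.7.2b, although the methods name a later STAR version, and estimated abundance with RSEM 1.3.1 on Ensembl release 108. The deposited files hold RSEM expected counts, in which a read shared by genes is divided between them, TPM scaled by gene length and library, and RSEM gene lengths. Deposited posterior SDs of the counts were 0 in every library for the 4 detected genes. Whether counting used the strand is not given in the sources used here.

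Gene names and loci came from GENCODE release 44, in which 62625 identifiers (99.9%) were found. The promoter windows equalled the hg38 sequence. After rounding of the expected counts, edgeR 4.0.16 (R 4.3.3) was run with filterByExpr, TMM and the quasi-likelihood F-test, and p-values were adjusted after Benjamini and Hochberg across every gene tested. One model held the 6 knockdown libraries and another the 4 drug libraries, without covariates. A call needed an adjusted p below 0.01 and a change above 2-fold, the study's thresholds. The biological coefficient of variation was 0.0948 and 0.126. DESeq2 1.42.0, the study's tool, was an alternative, and the fit was tested on simulated data. The other alternatives were DESeq2 size factors, other count filters, a fit of all libraries or of the compared ones, an effective length offset, the replicate block, GC content and length correction, an adjusted p under 0.05 with no fold, and leaving out each library. Tables and figures were made in Python 3.11.15 with pandas 2.3.3 and matplotlib 3.10.9.

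The genes, pathway lists and markers were chosen with earlier results of these data known. Named beside the 5 genes were called pathway genes, genes that overlap or adjoin them, the genes most like each (5 for RELN and VLDLR, 3 for LRP8 and DAB2), EZH2, E2F1 and the markers. Some genes that this rule selected are not reported here. ADAMTS14 was named, and GPRC5B and PMEPA1 were given levels, after their values were seen.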

Additional observations from a re-analysis of the deposited data

How the results depend on the processing

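The counts of called genes and pathway genes stayed within 1.5 times in the knockdown comparisons, except when calls needed an adjusted p below 0.05 and no fold. Then 8550 genes passed for shEZH2 against control shRNA, 6879 for shE2F1 against control shRNA and 9267 for shEZH2 against shE2F1, of which 79, 63 and 79 were pathway genes. Leaving out each library in turn gave 2015 to 2925, 1281 to 1643 and 2814 to 3557 called genes and 22 to 28, 14 to 15 and 23 to 27 pathway genes. For GSK126 the 0 genes called became 10 in DESeq2 and 37 to 43 when a library was left out, while none of the 4 detected genes and no pathway gene was called under any of 14 alternatives. Of 168 alternative values of these genes in the knockdown comparisons 166 kept their direction. RELN with shEZH2 ranged from -0.01 to 0.85 with a library left out, VLDLR between the hairpins from -0.29 to 0.10, and VLDLR with GSK126 from -0.08 to 0.02, turning without shEZH2 replicate 1, the same library and GSK126 replicate 2. Of 37 calls of pathway or neighbouring genes followed, 25 held under every alternative run and none of their 513 values changed sign. The cause of these shifts was not tested.

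The replicate numbers are shared between groups, but nothing in the labels says that a number marks a shared culture. With the replicate block 68 genes were called for GSK126, and 86 with GC content and length correction added, in a fit with 1 residual degree of freedom. The replicate difference correlated between DMSO and GSK126 at r = 0.63 over 11919 genes, and at 0.04 to 0.22 between the knockdown groups. Within replicate numbers GSK126 minus DMSO was 0.40 and 0.26 for LRP8 and 0.37 and 0.28 for DAB2 on the log2 scale. In that fit their edgeR adjusted p was 9.49e-06 and 0.0015, still under 2-fold, against 1 without the block. The block changed no call of the genes described. With 2 libraries a group, changes under 2-fold and genes with few counts, such as RELN outside shE2F1, are the least certain.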

Other observations

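Only genes that overlap these genes and the nearest protein-coding gene on each side were looked at. Of those expressed, most differed by less than 2-fold. ORC5, the nearest protein-coding gene above RELN in coordinates, lies 136683 bases away. It stood at 24.7 and 24.3 CPM with control shRNA and at 22.2 and 23.4 CPM with shE2F1. SMARCA2, the protein-coding gene on one side of VLDLR, stood at 51.6 and 55.9 CPM with control shRNA, at 60.4 and 56.5 CPM with shEZH2 and at 69.4 and 80.8 CPM with shE2F1, under a 2-fold change. MAGOH, beside LRP8, stood at 55.2 and 62.4 CPM with control shRNA and at 51.8 and 47.5 CPM with shE2F1. TTC33, the nearest protein-coding gene above DAB2 in coordinates, lies 1050033 bases away. It stood at 14.9 and 15.4 CPM with control shRNA and at 24.9 and 28 CPM with shEZH2, also under 2-fold.

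VLDLR-AS1, a long noncoding RNA on the opposite strand that overlaps the start of VLDLR, was counted 6 and 5 times with control shRNA, 14 times in each shEZH2 library and 56 and 43 times with shE2F1. Its log2 change was 2.98 ± 0.43 (edgeR adjusted p = 0.000263) with shE2F1, which was called, and 1.54 ± 0.49 (edgeR adjusted p = 0.0195) with shEZH2, which was not. The deposited posterior SD of the VLDLR counts was 0 in every library, so that the counting divided no VLDLR read with another gene. The strand setting of the counting is not given, and whether reads from the overlap were given to the right gene was not tested.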
